A study of Mus musculus with 4 samples.

Results

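The 8 receptors described here are G protein-coupled receptors by which gut endocrine cells read nutrients and local signals: Ffar1, Ffar2, Ffar3, Ffar4, Gpr119, Gpbar1, Casr and Sstr5. They were taken by symbol from the 31054 features of each matrix, and each symbol named 1 feature. RNA was counted in single cells of 4 droplet libraries from mice with a Bmi1-GFP reporter, which reports transcription of the Bmi1 locus in living cells and was carried by all groups. Intestinal epithelial cells were sorted by flow cytometry from embryos at day 12.5 (E12.5) and day 17.5 (E17.5), from adults and from irradiated adults, with 1 library per group. The labels used here did not give the radiation dose or the time after it, how many animals of which sex were pooled, or how the sort was gated. With 1 library per group no difference can be set against the spread between animals, so no test was made and every interval covers counting error only.

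Enteroendocrine cells are rare secretory cells scattered through the gut epithelium, and each releases a small set of peptide hormones when nutrients reach it. FFAR1 and FFAR4 bind long-chain fatty acids, FFAR2 and FFAR3 bind the short-chain fatty acids made by gut bacteria, GPR119 binds lipid amides and monoacylglycerols, GPBAR1 binds bile acids, and CASR binds calcium ions with amino acids as co-agonists. SSTR5 is a receptor for somatostatin, through which D cells restrain the secretion of their neighbours.

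RNA molecules were counted by their unique molecular identifiers (UMIs). Barcodes with 500 or more genes detected, and with no more than 20% of UMIs from mitochondrial genes, were kept as cells. The E12.5, E17.5, adult and irradiated libraries kept 4226, 4602, 3788 and 3184 cells, with median depths of 18637.5, 11499, 3699.5 and 8786 UMIs. A cell was called hormone-dominant when its most abundant hormone gene had at least 10 UMIs and 1% of the cell's UMIs. Such cells numbered 8, 1609, 2237 and 2161 in the same order, or 0.189%, 35.0%, 59.1% and 67.9% of those kept. The share of a cell's UMIs lay within 80% to 125% of the 1% cut in 1, 82, 196 and 328 cells of the 4 libraries in that order. Cells without a dominant hormone were grouped by summed marker genes, and these groups are ranges of a score, not cell types. Levels are counts per 1000000 (CPM), the UMIs of a gene summed over a set of cells and divided by all UMIs of that set, with exact Poisson 95% intervals. They weight deep cells more than shallow ones. Between 6 and 12 cell barcodes were shared by any 2 libraries, and no library was left out.

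The labels name intestinal epithelium, and E17.5 also held cells with pancreatic markers: 538 kept cells had acinar enzyme genes above 2% of their UMIs, and 131 had insulin as the dominant hormone. The 8 hormone-dominant cells of E12.5 together had the islet genes Ins1 at 1341 CPM and Iapp at 1115. Their level of the gut gene Cdx2 was 6.09 CPM (1 UMI), against 304 in all kept E12.5 cells. The irradiated and adult libraries each held cells with tuft markers (248 and 967 cells) and Paneth markers (90 and 84 cells). The reporter itself was thinly read: eGFP was at 22.9, 1.10, 1.72 and 12.5 CPM and Bmi1 at 15.7, 10.3, 11.6 and 14.4 CPM in the 4 libraries from E12.5 to irradiated adult.

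Ffar1, Ffar3 and Ffar2 lie in a row on the minus strand of mouse chromosome 7 in GRCm38 (GENCODE M21). Ffar1 spans 30857390 to 30861564, Ffar3 spans 30854330 to 30856178 and Ffar2 spans 30818348 to 30823775, with 1211 bases between Ffar1 and Ffar3 and 30554 between Ffar3 and Ffar2. The bases just upstream of their annotated starts are shown because these 3 neighbours had different cell patterns below. They come from RefSeq (GRCm38.p6), are written 5′ to 3′ on the minus strand, and stop at the last base before the GENCODE gene: chr7:30861565-30861720 for Ffar1, chr7:30823776-30824025 for Ffar2 and chr7:30856179-30856428 for Ffar3. Capitals mark the 6 bases CATCTG, which read CAGATG, an E-box of the kind bound by basic helix-loop-helix factors, on the other strand.
Ffar1: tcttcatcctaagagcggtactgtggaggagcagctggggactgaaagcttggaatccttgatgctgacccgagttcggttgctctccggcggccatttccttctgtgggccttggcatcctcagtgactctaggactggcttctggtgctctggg
Ffar2: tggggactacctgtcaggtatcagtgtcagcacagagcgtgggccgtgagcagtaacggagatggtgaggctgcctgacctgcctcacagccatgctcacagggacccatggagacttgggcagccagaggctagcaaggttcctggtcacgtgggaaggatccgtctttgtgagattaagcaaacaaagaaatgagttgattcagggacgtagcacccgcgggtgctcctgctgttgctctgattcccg
Ffar3: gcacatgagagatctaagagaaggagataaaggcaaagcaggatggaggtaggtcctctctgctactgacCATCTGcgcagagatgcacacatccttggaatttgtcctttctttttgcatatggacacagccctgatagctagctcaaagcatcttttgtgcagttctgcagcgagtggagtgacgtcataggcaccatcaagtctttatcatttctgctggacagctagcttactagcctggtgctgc
The 3 motifs below were searched on both strands: the E-box CAGATG, the FOXA motif TGTTTAC and the octamer ATGCAAAT. None overlapped another. Of the 3 windows, only that of Ffar3 held a match, to the E-box CAGATG, which begins 180 bases before the end of the printed window. Other forms of these motifs were not searched. The Ffar1 window holds cagctg and the Ffar2 window cacgtg, which are other forms of E-box, so E-boxes as a class were not confined to Ffar3. The Ffar2 window also holds gcaaaca, which reads TGTTTGC on the other strand and is close to the FOXA motif searched. The Ffar1 window was also shorter, at 156 bases against 250 for the other 2. The E-box was in 14.5% of 32817 RefSeq promoter windows, the FOXA motif in 3.16% and the octamer in 1.60%.

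Ffar4 lies on chromosome 19 (38097071 to 38114263, plus strand), Gpr119 on X (48667979 to 48674478, minus), Gpbar1 on chromosome 1 (74278550 to 74279624, plus), Casr on chromosome 16 (36493696 to 36562141, minus) and Sstr5 on chromosome 17 (25489875 to 25497288, minus). Casr overlaps the small RNA gene Gm25902, and the other 7 overlap no annotated gene. Both are on the minus strand, so reads of Gm25902 may not be told apart from those of Casr.

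Hormone-dominant cells held more receptor RNA per UMI than the other cells of the same library for nearly all receptors. All 8 of 8 receptors were at least 2-fold higher in hormone-dominant cells at E17.5, where 16.3% of the 15785 genes with at least 10 UMIs in either set were. In the adult 6 of the 7 receptors that reached 10 UMIs were higher (22.3% of genes) and Ffar3 was lower (8.86% of genes). In the irradiated adult 7 of 8 were higher (15.8% of genes) and 0 lower (5.47% of genes). Ratios were taken as log2((CPM + 1)/(CPM + 1)). The median of this value over all genes was 0.04, 0.37 and 0.45 in the 3 libraries in that order. Gpbar1 had 3 UMIs in the adult and entered no such ratio there.

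**Figure D1:**
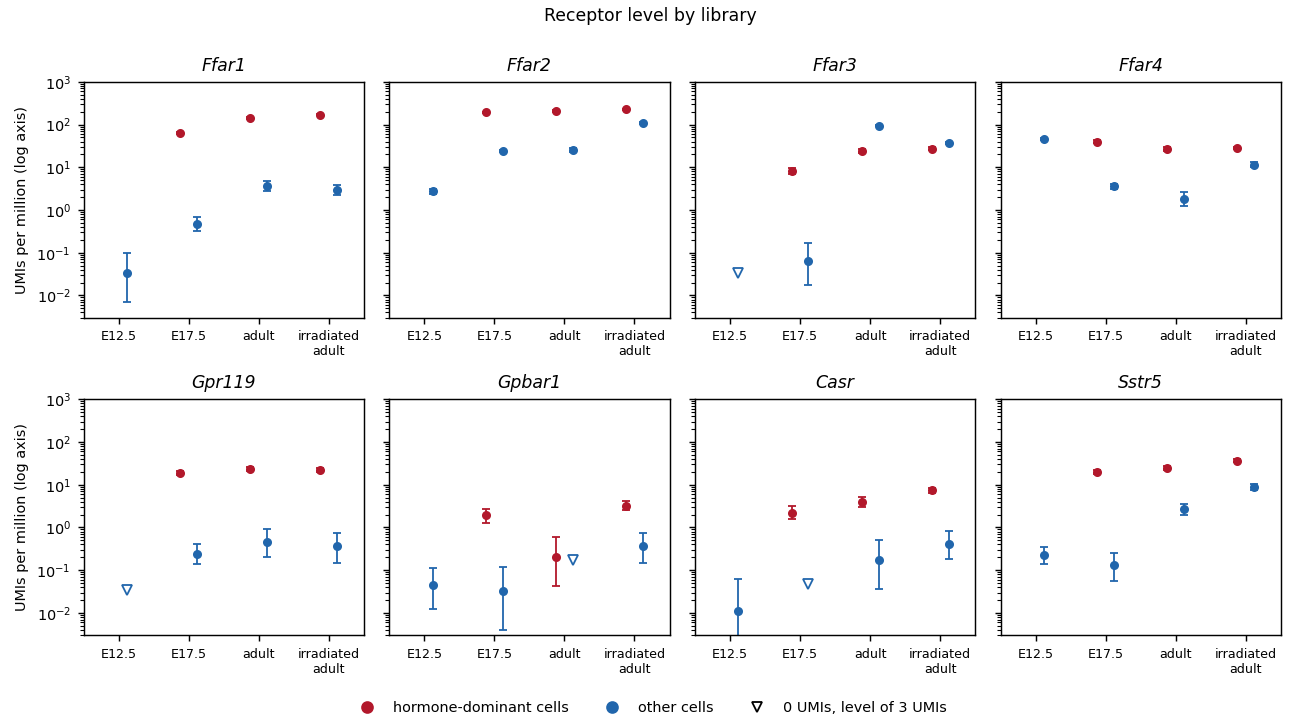
Level of each receptor in CPM (log axis) in hormone-dominant and other kept cells of each library. Points are summed levels with exact Poisson 95% intervals, open triangles mark 0 UMIs and stand at the level of 3 UMIs, and the 8 hormone-dominant cells of E12.5 are not drawn. Red points lie above blue points in every panel with both, except for Ffar3 in both adult libraries.

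Ffar1, the long-chain fatty acid receptor that couples mainly to Gq, was read almost only in hormone-dominant cells. In all kept cells it had 0.0786 CPM in E12.5 cells (7 UMIs), 12.9 at E17.5 (992 UMIs), 67.0 in the adult library (2138 UMIs) and 92.3 after irradiation (3820 UMIs). In hormone-dominant cells its level was 63.4 CPM (59.5 to 67.5) at E17.5, 142 (136 to 148) in the adult and 169 (163 to 174) after irradiation. The other cells of these libraries were at 0.47, 3.69 and 2.94 CPM. With each cell thinned to 2000 UMIs, 11.2%, 22.6% and 23.8% of hormone-dominant cells had an Ffar1 UMI, against 0.211%, 1.51% and 1.11% of other cells. Without thinning the shares of hormone-dominant cells were 34.6%, 34.5% and 41.2%. Tuft-marker cells, outside the endocrine lineage, serve as a background: 1.22% of 898 adult and 1.32% of 228 irradiated cells after thinning.

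Among the hormones, Ffar1 was highest in cells dominated by Nts (neurotensin), Gcg (the precursor of GLP-1) and Cck (cholecystokinin). At E17.5 it was at 123 CPM (100 to 148) in Nts cells, 102 (83.9 to 124) in Gcg cells, 92.4 (80.4 to 106) in Cck cells, 69.5 in Sct (secretin) cells and 52.9 in Gip cells, which make the incretin GIP. Insulin cells had 55.6 CPM, Pyy (peptide YY) cells 32.0 and Ghrl (ghrelin) cells 24.7. The intervals of Nts, Gcg and Cck cells overlapped, and those of insulin and Gip cells did too. Adult Nts cells had 441 CPM (339 to 563, 64 UMIs in 70 cells), Cck cells 283 (262 to 306), Gcg cells 171 (120 to 237, 13 cells), Gip cells 137 (127 to 147), Sct cells 111 (101 to 120) and Ghrl cells 99.8 (65.2 to 146). In the irradiated adult the order began with Gcg cells at 330 CPM (275 to 393, 27 cells) and Nts cells at 299 (222 to 394), followed by Cck cells at 249 (238 to 261), Sct cells at 184, Gip cells at 117 and Ghrl cells at 95.3. Sst (somatostatin) cells were the exception in each library, with 1.38 CPM (1 UMI), 7.58 (10 UMIs) and 8.69 (24 UMIs). Those Sst levels were near the 6.11 and 4.95 CPM of adult and irradiated tuft-marker cells. Tac1 cells, which make substance P and belong to the serotonin lineage, had 11.8 CPM at E17.5 (3 UMIs) and 1.97 in the irradiated adult (1 UMI).

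Ffar4, the second long-chain fatty acid receptor, also known as GPR120, was the only one of the 8 with its highest library level at E12.5, where hardly any cell had a dominant hormone. It stood at 46.1 CPM in E12.5 cells (4106 UMIs), 10.7 at E17.5 (826 UMIs), 13.4 in the adult (427 UMIs) and 20.6 after irradiation (851 UMIs). At E12.5, 51.0% of all 4226 cells had an Ffar4 UMI, and 9.08% of 3655 cells did after thinning. In hormone-dominant cells it was at 39.6 CPM (36.5 to 42.9), 27.1 (24.5 to 29.9) and 28.3 (26.1 to 30.6) in the 3 later libraries, against 3.63, 1.85 and 11.5 in the other cells. After thinning, 8.17%, 4.86% and 5.68% of hormone-dominant cells had a UMI, against 26%, 12.7% and 20.5% before it. Thinned shares in cells with enterocyte markers at E17.5 (0 of 254, which allows up to 1.18%) and in adult tuft-marker cells (0.111%) were lower.

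Adult Ffar4 was at 42.5 CPM (32.1 to 55.1) in Sst cells and 40.4 (35.2 to 46.2) in Gip cells, and their intervals overlapped. Adult Cck cells had 31.8 CPM, Nts cells 34.4 (5 UMIs), Ghrl cells 23.0 (6 UMIs) and Sct cells 6.67 (4.59 to 9.37). Irradiated Gip cells had 49.4 CPM (42.5 to 57.0), Cck cells 32.7, Sst cells 31.2 and Sct cells 13.1 (10.6 to 15.9). Sct cells were thus the lowest of the large hormone sets in both adult libraries. The highest irradiated level lay outside the hormone cells, in 43 cells with goblet markers: 94.3 CPM (76.7 to 115), with an Ffar4 UMI in 27 of them. The 34 goblet-marker cells of E17.5 had 25.7 CPM (14.7 to 41.7).

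**Figure D2:**
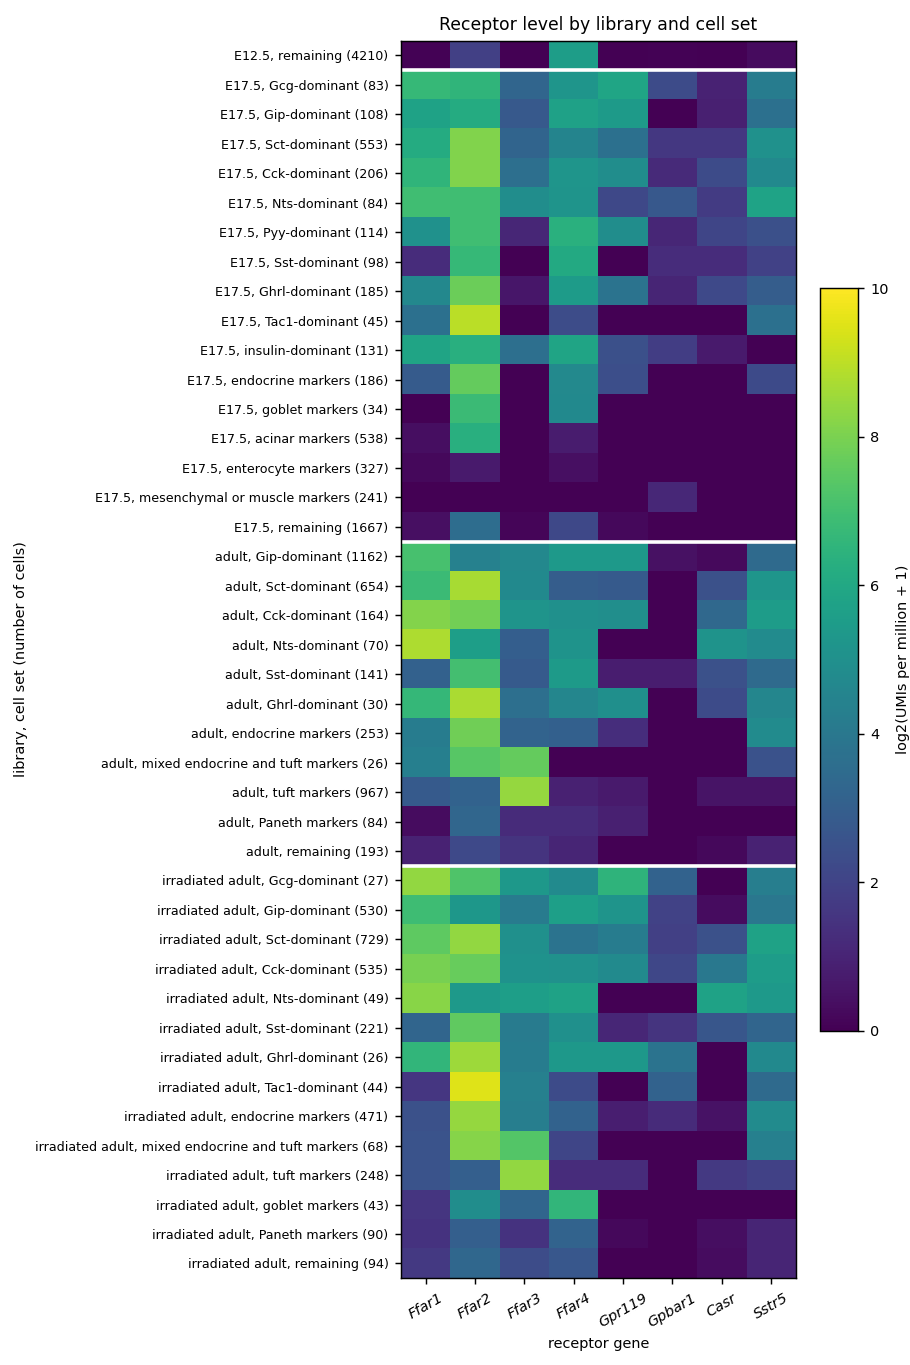
Level of each receptor, as log2(CPM + 1), in every set of at least 26 cells, by library. Rows are cell sets with the number of cells in brackets and columns are receptors. Ffar3 is brightest in tuft-marker cells of both adult libraries, Ffar2 is bright in Tac1, Sct, Ghrl and Cck cells and dim in Gip cells, and Ffar1 is dim in Sst cells.

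At E17.5 the hormone-dominant cells fell into a larger set with gut epithelium genes (Cdx1, Cdx2, Cdh17, Lgals4 and Vil1 together at 0.05% of UMIs or more, 1252 cells) and a set below that cut (357 cells, with 47 cells of either set near it). The cut was chosen after the data were seen. The low set had the 9 islet markers summed to 144947 CPM and the gut genes to 104 CPM, against 5279 and 2699 CPM in the other set. Ffar4 was 2.89-fold higher in the low set (2.45 to 3.41), at 81.9 CPM against 28.3. Sstr5 was lower there, at 1.88 CPM (6 UMIs) against 24.7, a ratio of 0.076 (0.0277 to 0.167). Of the 8 receptors, 1 was at least 2-fold higher in the low set, where 8.13% of genes were, and 1 was lower, where 14.1% of genes were. Ffar1 was at 37.8 against 70.2 CPM and Ffar2 at 113 against 216.

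The Ffar4 difference was seen within 4 single hormones and not in Cck or Gip cells. Sst cells had 124 CPM (88.7 to 169) in the low set and 20.01 (8.64 to 39.4) in the other. Ghrl cells had 111 (78.6 to 151) and 28.3 (20.6 to 38.0), and Gcg cells 130 (78.5 to 204) and 21.1 (12.7 to 33.0). Pyy cells had 95.7 (74.5 to 121) and 21.5 (5.87 to 55.1, 4 UMIs). In none of these 4 hormones did the intervals overlap. Cck cells had 47.0 CPM (15.2 to 110, 10 cells) in the low set and 35.5 (28.0 to 44.3) in the other, and Gip cells 31.3 (2 UMIs in 8 cells) and 52.4, with overlapping intervals for both. The low set without insulin cells was at 101 CPM (86.8 to 117), so the level was no lower when insulin cells were left out.

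**Figure D3:**
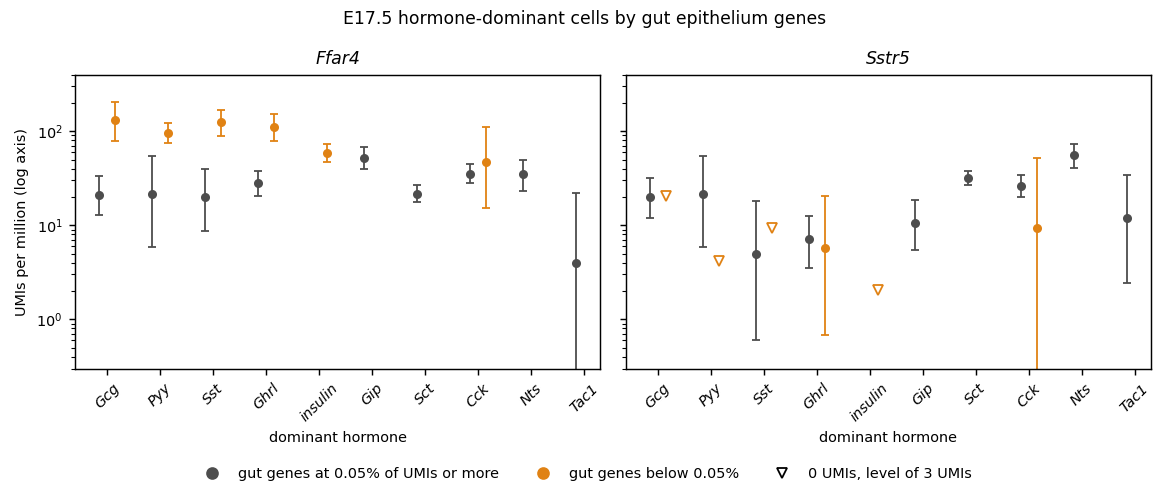
Level of Ffar4 and Sstr5 at E17.5 in CPM (log axis) by dominant hormone, split by gut epithelium genes. Points carry exact Poisson 95% intervals, triangles mark 0 UMIs at the level of 3 UMIs, and sets under 10 cells are not drawn. Ffar4 lies higher in Gcg, Pyy, Sst and Ghrl cells with few gut genes, while Sstr5 was not found in 4 of the 6 low sets drawn.

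Ffar2, the short-chain fatty acid receptor that couples to Gi and Gq, was high in Tac1, Sct, Ghrl and Cck cells and low in Gip cells. In all kept cells it was at 2.86 CPM in E12.5 cells (255 UMIs), 57.8 at E17.5 (4446 UMIs), 109 in the adult (3480 UMIs) and 174 after irradiation (7198 UMIs). In hormone-dominant cells it was nearly level, at 195 CPM (188 to 202), 209 (201 to 216) and 229 (223 to 235). The other cells had 24.2, 25.3 and 109 CPM. After thinning, 32.7%, 22.7% and 30.4% of hormone-dominant cells had an Ffar2 UMI, against 6.96%, 6.88% and 27.1% of other cells. Before thinning the hormone-dominant shares were 68.7%, 32.2% and 54.2%.

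Cells with endocrine markers but no dominant hormone held 308 of the 438 Ffar2 UMIs of other cells in the adult and 1782 of 2086 after irradiation, but 370 of 1491 at E17.5, where acinar-marker cells held 565. Their level was 196 CPM (177 to 217) at E17.5, 230 (205 to 257) in the adult and 344 (329 to 361) after irradiation. There were 186, 253 and 471 such cells. At E17.5 the gene was also read in 34 goblet-marker cells (111 CPM, 86.1 to 140) and in the 538 acinar-marker cells (79.0 CPM, 72.6 to 85.8). As given above, 25 E17.5 cells lay near the goblet cut. Ffar2 was close to 0 in E17.5 enterocyte-marker cells (0.649 CPM, 4 UMIs) and had 0 UMIs in 241 cells with mesenchymal or muscle markers. The acinar-marker level thus lay below that of goblet-marker cells and above that of enterocyte-marker cells. Cells with at least 2 UMIs of Neurog3, the transcription factor of endocrine precursors, had 156 CPM (140 to 174) at E17.5.

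By hormone, Tac1 cells had the highest Ffar2 where enough were present: 497 CPM (414 to 592) at E17.5 and 724 (652 to 802) in the irradiated adult. Sct cells had 272, 418 and 330 CPM in the 3 libraries, Ghrl cells 213, 418 and 372, Cck cells 273, 236 and 203, and Sst cells 102, 129 and 188. Gip cells were the lowest of the large sets, at 69.7 CPM (55.5 to 86.4) at E17.5, 19.8 (16.3 to 24.0) in the adult and 38.2 (32.2 to 45) after irradiation. After thinning, 2.02% of 792 adult Gip cells had an Ffar2 UMI, close to the 2.00% of 898 adult tuft-marker cells, while the summed level of those tuft-marker cells was lower, at 7.86 CPM (5.50 to 10.9). The level in Gip cells was carried by few cells, with an unthinned UMI in 44 of 1162 and up to 13 UMIs in 1 cell. In adult Gip cells Ffar1 had been found in 25.1%. In the adult the ranking of Gip and Sct cells was therefore opposite for Ffar1 and Ffar2, with non-overlapping intervals for both genes. In the E17.5 and irradiated libraries Sct cells had the higher value for both genes, though the E17.5 intervals of Ffar1 overlapped.

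Ffar3, the other short-chain fatty acid receptor, which couples to Gi, had its highest level in tuft-marker cells in both adult libraries. After irradiation the 2161 hormone-dominant cells still held more of its UMIs than the 248 tuft-marker cells, 609 against 474. Tuft cells are chemosensory epithelial cells that signal through Trpm5. Ffar3 had 0 UMIs at E12.5 (a level of up to 0.0337 CPM is allowed by 3 UMIs), 1.68 CPM at E17.5 (129 UMIs), 62.6 in the adult (1996 UMIs) and 31.8 after irradiation (1315 UMIs). Tuft-marker cells had 338 CPM (321 to 355; 1548 UMIs) in the adult and 335 (306 to 367; 474 UMIs) after irradiation. After thinning, 49.9% of 898 and 42.1% of 228 tuft-marker cells had a UMI, and before it 72.4% and 74.2% did. Paneth-marker cells, a background for this gene, had 1.36 and 1.79 CPM and thinned shares of 0 of 83 (up to 3.61%) and 2.22%. Cells with both endocrine and tuft markers had 200 CPM (26 cells) and 158 CPM (68 cells), and may include pairs of cells in 1 droplet, which was not tested. The tuft-marker cells also held RNA of other lists: enterocyte markers summed to 22236 and 13137 CPM and enteroendocrine markers to 518 and 1035 CPM in the adult and irradiated libraries. The part of such RNA in the Ffar3 level was not tested.

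Hormone-dominant cells had Ffar3 at 8.23 CPM (6.85 to 9.80), 24.2 (21.7 to 26.9) and 27.3 (25.2 to 29.5) in the 3 later libraries. After thinning, 1.60%, 5.39% and 4.38% of them had a UMI, and before it 7.02%, 11.4% and 17.9%. At E17.5, where no tuft-marker cells were found, 125 of the 129 Ffar3 UMIs were in hormone-dominant cells. Nts cells led there at 28.9 CPM (18.7 to 42.7), before Cck cells at 11.7 and insulin cells at 11.5, and Sst and Tac1 cells had 0 UMIs. Adult Cck, Sct and Gip cells had 35.6 (28.4 to 44.2), 25.7 (21.4 to 30.5) and 24.2 (20.2 to 28.7) CPM, and Sst cells 6.07 (8 UMIs). In the irradiated adult Cck and Sct cells had 33.0 and 31.3 CPM with overlapping intervals, and Gip and Sst cells 16.8 and 16.7.

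The Ffar3 level of all kept cells was 0.508 times as high in the irradiated adult as in the adult (0.473 to 0.545). Barcodes that the cell filter left out are not in this ratio. They held 649 further Ffar3 UMIs in the adult (96.3 CPM) and 1077 after irradiation (115 CPM), so the ratio depends on the filter. Within tuft-marker cells the ratio was 0.992 (0.893 to 1.10). Tuft-marker cells were 967 of 3788 kept cells in the adult and 248 of 3184 after irradiation.

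Gpr119, which couples to Gs and raises cyclic AMP, was nearly confined to hormone-dominant cells in the 3 later libraries. It had 0.0898 CPM in E12.5 cells (8 UMIs), 3.98 at E17.5 (306 UMIs), 10.9 in the adult (347 UMIs) and 12.2 after irradiation (504 UMIs). The E12.5 UMIs were all in the hormone-dominant cells, which as a set had the islet genes named above. Hormone-dominant cells had 19.2 (17 to 21.5), 23.2 (20.8 to 25.9) and 22.3 CPM (20.3 to 24.3), and other cells 0.243, 0.462 and 0.367. After thinning the shares were 4.09%, 3.46% and 3.49% against 0.105%, 0.287% and 0.222%, and before it 13.2%, 9.25% and 14.1% against 0.434%, 0.451% and 0.684%.

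Gcg cells had the highest Gpr119 level in each of the 3 later libraries: 58.4 CPM (44.7 to 75.0) at E17.5, 66.5 (36.4 to 112, 13 cells) in the adult and 89.8 (62.2 to 126, 27 cells) after irradiation. Gip cells had 42.8, 40.4 and 35.2 CPM, Cck cells 28.6, 30.1 and 26.4, and Ghrl cells 13.1, 30.7 and 39.0. In Nts cells there were 3 UMIs at E17.5 and 0 in both adult libraries, where 3 UMIs would give 20.7 and 17.9 CPM. Their adult interval ended at 25.4 CPM and still included the 23.2 CPM of all hormone-dominant cells. The irradiated interval of Nts cells ended at 22.0 CPM, just below the 22.3 CPM of all hormone-dominant cells. Sst cells had 0, 1 and 3 UMIs. The intervals of Gcg and Gip cells overlapped at E17.5 and in the adult, and did not after irradiation.

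Gpbar1, the bile acid receptor, which couples to Gs, was the scarcest of the 8 in the adult. From E12.5 to the irradiated adult it had 4, 31, 3 and 79 UMIs, or 0.0449, 0.403, 0.094 and 1.91 CPM. Of the 31 UMIs at E17.5, 29 were in hormone-dominant cells (1.91 CPM, 1.28 to 2.74), and of the 79 in the irradiated adult 72 were (3.23 CPM, 2.52 to 4.06). The adult UMIs were 2 in Gip cells and 1 in an Sst cell. After thinning, 0.447% of hormone-dominant cells had a UMI at E17.5, 0 of 1707 in the adult (up to 0.176%) and 0.506% after irradiation. Before thinning these shares were 1.80%, 0.134% and 2.73%, at median depths of 8025, 3236 and 9353 UMIs. No cell with tuft, Paneth or goblet markers had a Gpbar1 UMI in either adult library.

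Irradiated Gpbar1 was spread over many hormones: 13.0 CPM in Ghrl cells (6 UMIs), 7.93 in Gcg cells (3 UMIs), 7.87 in Tac1 cells (4 UMIs), 3.34 in Cck cells (23 UMIs), 2.94 in Gip cells (11 UMIs), 2.70 in Sct cells (20 UMIs) and 1.81 in Sst cells (5 UMIs). The interval of Ghrl cells (4.77 to 28.3) lay above those of Sct cells (1.65 to 4.16) and Sst cells (0.588 to 4.23), and the other intervals overlapped. At E17.5 the highest levels were 5.78 CPM in Nts cells (5 UMIs) and 3.83 in Gcg cells (4 UMIs).

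Casr, the calcium-sensing receptor, had few UMIs and a narrow pattern. It had 1, 34, 62 and 172 UMIs, or 0.0112, 0.442, 1.94 and 4.16 CPM. All 34 UMIs at E17.5 were in hormone-dominant cells, at 46.1 times the level that 3 UMIs would give in the other cells. The counting interval of that ratio began at 35.5. Adult and irradiated hormone-dominant cells had 4.05 (3.08 to 5.22) and 7.35 CPM (6.26 to 8.56), and other cells 0.173 and 0.42. After thinning, 0.319%, 0.879% and 1.41% of hormone-dominant cells had a UMI, and before it 2.05%, 2.5% and 6.20%.

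In both adult libraries Casr was highest in Nts cells, at 34.4 CPM (11.2 to 80.4, 5 UMIs) and 53.7 (24.6 to 102, 9 UMIs), and next in Cck cells, at 9.44 (5.92 to 14.3, 22 UMIs) and 15.3 (12.5 to 18.5, 105 UMIs). The intervals of Nts and Cck cells overlapped in the adult and did not in the irradiated library. Cck cells held 61.0% of the irradiated library's Casr UMIs. Sct cells had 4.65 and 4.58 CPM and Sst cells 4.55 and 5.43. Gip cells had 1 UMI in each library, 0.187 and 0.267 CPM, although they were 1162 and 530 cells. The intervals of Gip and Cck cells were far apart in both libraries. At E17.5 the counts were too low to order the hormones, with at most 9 UMIs in a set.

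Sstr5, the somatostatin receptor, had 20, 310, 411 and 987 UMIs, or 0.225, 4.03, 12.9 and 23.8 CPM. In hormone-dominant cells it was at 19.9 CPM (17.7 to 22.3), 25.0 (22.5 to 27.7) and 36.6 (34.2 to 39.2), against 0.13, 2.65 and 8.87 in other cells. The adult and irradiated other cells with Sstr5 were mainly endocrine-marker cells, at 27.6 and 27.4 CPM. After thinning, 4.98%, 3.40% and 7.20% of hormone-dominant cells had a UMI, against 16.2%, 12.7% and 27.2% before it. Tuft-marker cells had 0 of 898 (up to 0.334%) and 0 of 228 (up to 1.32%) after thinning.

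Among the hormone sets, Sct, Cck and Nts cells held high Sstr5 levels in each library. At E17.5 they had 31.9, 25.6 and 55.5 CPM, in the adult 36.6, 44.6 and 27.5 (4 UMIs), and after irradiation 53.5, 45.3 and 41.8 (7 UMIs). Gip cells had 11.8, 9.92 and 14.4 CPM. Sst cells, the source of the ligand, had 2.77 (2 UMIs), 9.86 and 8.69 CPM. Insulin cells had 0 UMIs, where 3 UMIs would give 1.92 CPM. In the adult libraries the intervals of Sst cells lay below those of Sct and Cck cells.

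Secretin cells were a mixture for these receptors. Sct is made in many endocrine cells, and those that also make Tph1, the rate-limiting enzyme of serotonin synthesis, are of the enterochromaffin kind. Sct cells were split into cells with at least 3 Tph1 UMIs (291, 428 and 529 cells in the E17.5, adult and irradiated libraries) and cells with 0 (202, 137 and 122 cells). In Sct cells without Tph1, Ffar1 was at 123 (108 to 141), 443 (394 to 496) and 482 CPM (439 to 528) in the 3 libraries. In those with Tph1 it was at 23.4 (17.4 to 30.9), 28.5 (23.4 to 34.4) and 89.3 CPM (81.7 to 97.4). The ratios without over with were 5.28 (3.87 to 7.32), 15.5 (12.4 to 19.5) and 5.40 (4.75 to 6.14). The intervals did not overlap in any library.

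Ffar2 had the opposite order, with 182, 122 and 105 CPM without Tph1 and 358, 489 and 401 with it, ratios of 0.51 (0.447 to 0.581), 0.249 (0.197 to 0.31) and 0.262 (0.213 to 0.32). Gpr119 went with Ffar1, at 27.5, 24.9 and 56.3 CPM without Tph1 against 0.936 (2 UMIs), 0.519 (2 UMIs) and 6.85 with it. Ffar4 was at 34.8, 26.4 and 36.5 CPM without Tph1 against 10.8, 2.59 and 7.73, and Ffar3 at 12.3, 45.5 and 54.2 against 4.68, 19.7 and 22.7. Sstr5 differed less, with ratios of 1.48 (1.02 to 2.15), 1.93 (1.32 to 2.78) and 1.40 (1.06 to 1.83). At least 2-fold higher without Tph1 were 4 of 6 receptors tested at E17.5 (4.9% of genes), 5 of 7 in the adult (5.37% of genes) and 5 of 8 after irradiation (2.95% of genes). Ffar1, Ffar3, Ffar4 and Gpr119 were among them in each library. The remaining receptor was Casr in the adult (6 against 12 UMIs) and Gpbar1 after irradiation (5 against 10 UMIs). Casr went the other way after irradiation, with a log2 ratio of -0.94. At least 2-fold lower were 0 (7.64% of genes), 1 (16.3% of genes) and 1 (16.4% of genes), which was Ffar2 in both adult libraries.

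Depth moved with this split: the median was 8250.5 UMIs without Tph1 and 6423 with it at E17.5, 2972 and 8605 in the adult, and 4727 and 9403 after irradiation. With only cells of at least 5000 UMIs (175 and 241, 32 and 336, 61 and 487 cells), the log2 ratio of Ffar1 was 2.12, 4.03 and 2.48 and that of Ffar2 -0.995, -1.78 and -1.87, so both kept their directions at matched minimum depth. Gpbar1 after irradiation fell below 2-fold there, at 0.69. Casr was at 1.07 in the adult and -1.39 after irradiation, and adult Sstr5 rose past 2-fold, at 1.26.

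**Figure D4:**
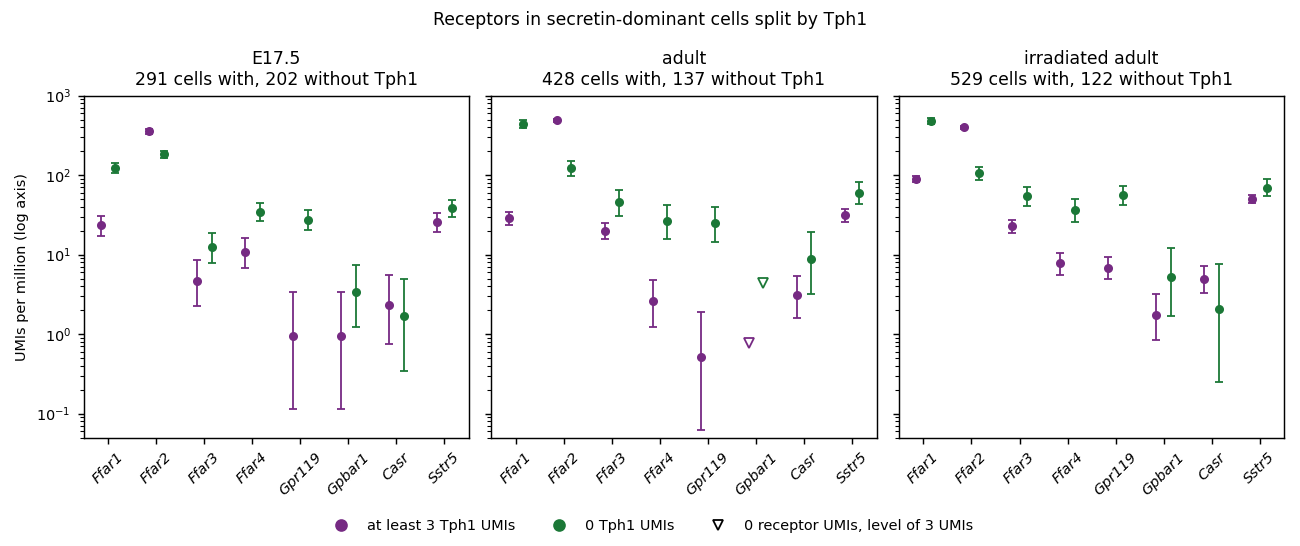
Level of each receptor in CPM (log axis) in secretin-dominant cells with at least 3 Tph1 UMIs and with 0, in 3 libraries. Points carry exact Poisson 95% intervals and triangles mark 0 receptor UMIs at the level of 3 UMIs. Ffar1, Ffar4 and Gpr119 lie higher without Tph1 and Ffar2 higher with it in all 3 panels.

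In the adult libraries the opposition was also read cell by cell. Among adult Sct cells thinned to 2000 UMIs, 8.09% of the 272 with an Ffar2 UMI had an Ffar1 UMI (5.14 to 12), against 22.8% of the 289 without (18.1 to 28.1). In irradiated Sct cells the shares were 12.2% of 288 (8.61 to 16.5) and 27.0% of 370 (22.6 to 31.9). At E17.5 the intervals overlapped, with 8.06% of 211 (4.76 to 12.6) and 12.6% of 326 (9.18 to 16.7). In Cck cells the intervals overlapped: 49.1% with Ffar2 and 44.1% without in the adult, and 40.2% and 42.6% after irradiation. After thinning, 2 or more of the 8 were read in 11.1%, 10.0% and 16.0% of hormone-dominant cells of the 3 libraries, and in 18.7%, 29.0% and 28.4% of Cck cells. Doublets were not removed, and among other cells the shares were 0.387%, 1.72% and 4.11%. The most in 1 cell at this depth was 4 in each of the 3 later libraries.

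Development was compared over whole libraries and within hormone-dominant cells. From E12.5 to E17.5, 5 of 8 receptors were at least 2-fold higher in all kept cells (Ffar1, Ffar2, Ffar3, Gpr119 and Sstr5; 13.6% of genes) and Ffar4 was lower (13.9% of genes). Ffar4 was 0.233 times as high (0.216 to 0.251) and Ffar2 20.2 times (17.8 to 23.0). Ffar3 had 0 UMIs at E12.5 and was at 49.8 times the level of 3 UMIs, with a ratio interval that began at 39.9. From E17.5 to the adult, 5 were higher in all kept cells (Ffar1, Ffar3, Gpr119, Casr and Sstr5; 12.2% of genes) and 0 lower (12.9% of genes). Hormone-dominant cells were 0.189%, 35.0% and 59.1% of the kept cells at these ages, and in such whole-library sums more endocrine cells and more receptor RNA per cell cannot be told apart.

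Within hormone-dominant cells Ffar1 (ratio 2.24, 2.08 to 2.42) and Ffar3 (2.94, 2.39 to 3.64) were at least 2-fold higher in the adult than at E17.5, where 11.3% of genes were, and Gpbar1 was lower (0.108, 0.021 to 0.348), where 10.3% of genes were. With equal weight to each hormone, an alternative added after the data were seen, Ffar3 went from 1.45 to 0.92 on the log2 scale and lost the call, and Casr from 0.64 to 1.65 and gained it. Ffar2 (1.07), Gpr119 (1.21) and Sstr5 (1.26) were within 1.5-fold. The E17.5 side of these ratios included the 357 cells with few gut genes. In the E17.5 cells with gut genes Ffar4 was at 28.3 CPM and Sstr5 at 24.7, against 27.1 and 25.0 in the adult. Ffar1 was at 70.2 CPM there against 142, Ffar3 at 8.92 against 24.2 and Gpbar1 at 2.17 against 0.206. The mix of hormones also differed between these libraries, so the ratio was taken within each hormone, with no split by gut genes. Ffar1 was 2.59-fold higher in adult Gip cells (2.00 to 3.40), 3.07 in Cck cells (2.62 to 3.60), 3.60 in Nts cells (2.60 to 4.95), 4.05 in Ghrl cells (2.41 to 6.67) and 1.59 in Sct cells (1.38 to 1.84). Ffar1 was thus higher in each of these 5 hormones. Counted over the receptors that reached 10 UMIs, adult Gip cells had 2 of 6 at least 2-fold higher (18.4% of genes) and 1 lower (12% of genes), and adult Sct cells 1 of 7 (11.8% of genes) and 1 (11.3% of genes). Cck cells had 3 of 7 higher (8.94% of genes) and 0 lower (8.56% of genes), the third gene beside Ffar1 and Ffar3 being Casr. Nts cells had 1 of 5 higher (19.4% of genes), and Ffar2 and Ffar3 lower (32.2% of genes). Ffar1 and Sstr5 were the 2 of 4 higher in Sst cells (16.1% of genes), with 0 lower (10.3% of genes). These 2 calls rest on 10 adult against 1 E17.5 UMI for Ffar1 and 13 against 2 for Sstr5. The adult Ffar1 level of Sst cells, 7.58 CPM, was near the 6.11 CPM of adult tuft-marker cells. In Ghrl cells 3 of 5 were higher, Ffar1, Gpr119 and Sstr5 (9.87% of genes), and 0 lower (16.9% of genes). The adult Ghrl set was 30 cells, with 26 Ffar1 UMIs (13 of them in 1 cell), 8 Gpr119 UMIs (5 in 1 cell) and 6 Sstr5 UMIs. Counting intervals do not cover such clumping in single cells.

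Ffar3 was 4.11-fold higher in adult Gip cells (1.94 to 10.4), 3.07 in Sct cells (2.11 to 4.55) and 3.04 in Cck cells (1.95 to 4.89), but had 1 UMI in adult Nts cells, a ratio of 0.238 (0.0058 to 1.46). Ffar2 went apart by hormone: it was 0.285 times as high in adult Gip cells (0.212 to 0.384), 1.54 in Sct cells (1.43 to 1.65) and 1.96 in Ghrl cells (1.57 to 2.43). Ffar4 was 0.307 times as high in adult Sct cells (0.20 to 0.46) and 0.789 in Gip cells (0.592 to 1.07).

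The irradiated adult was compared with the adult in the same way. In all kept cells only Gpbar1 was at least 2-fold higher on the log2((CPM + 1)/(CPM + 1)) scale (2.63% of genes) and 0 were lower (4.59% of genes). Its plain ratio was 20.3 (6.70 to 101), which rests on 3 adult UMIs. In hormone-dominant cells it was again the 1 receptor higher (1.72% of genes), with a ratio of 15.7 (5.15 to 77.8), and 0 were lower (3.25% of genes). Casr had a ratio of 1.82 (1.34 to 2.49) and Sstr5 of 1.46 (1.29 to 1.66) in these cells. Ffar1 (1.19), Ffar2 (1.10), Ffar3 (1.13), Ffar4 (1.05) and Gpr119 (0.958) stayed within 1.5-fold.

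Within Gip cells 1 of 7 receptors tested was at least 2-fold higher (3.09% of genes), within Cck cells 1 of 8 (5.21% of genes), and within Sct cells 2 of 8 (1.8% of genes). Gpbar1 was the receptor in all of them. It was 7.84-fold higher in Gip cells (1.71 to 72.8). Adult Sct and Cck cells had 0 Gpbar1 UMIs, and the irradiated levels were 4.45 and 2.59 times the level of 3 adult UMIs. These 2 values leave out the counting error of the irradiated UMIs and are not lower limits. The other receptor higher in Sct cells was Gpr119, with a ratio of 2.84 (1.90 to 4.39). Sst cells had 1 of 6 higher (5.72% of genes), which was Ffar3 at 2.75 (1.28 to 6.74; 8 adult UMIs), and tuft-marker cells had 0 of 3 (3.3% of genes). None of the receptors was at least 2-fold lower in Gip, Sct, Cck, Sst or tuft-marker cells, where 4.84%, 2.33%, 2.62%, 3.82% and 3.31% of genes were. Endocrine-marker cells without a dominant hormone had 1 of 5 higher (8.68% of genes), Ffar3 at 2.24 (1.20 to 4.64), and 1 lower (7.04% of genes), Ffar1 at 0.271 (0.146 to 0.502). Paneth-marker cells had 2 of 4 higher (6.51% of genes) and 0 lower (13.8% of genes): Ffar4 at 6.01 (2.42 to 19.2) and Ffar1 at 6.55 (0.969 to 280), which had 1 adult UMI there. Ffar2 was 1.92-fold higher in Gip cells (1.49 to 2.5) and 0.791 times as high in Sct cells (0.745 to 0.839).

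**Figure D5:**
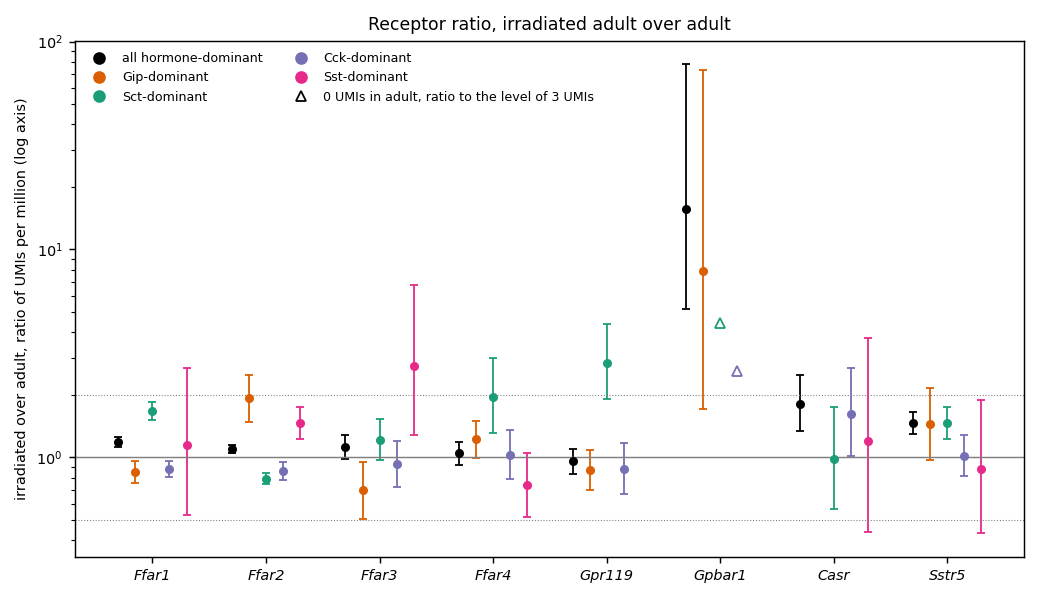
Ratio of receptor level, irradiated adult over adult (log axis), in all hormone-dominant cells and in Gip, Sct, Cck and Sst cells. Bars are counting 95% intervals, open triangles mark sets with 0 adult UMIs and stand at the ratio to 3 UMIs, the solid line is 1 and dotted lines are 0.5 and 2. Gpbar1 lies above 2 in each set drawn for it, and the other receptors lie mostly between 0.5 and 2.

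Other genes of the same systems were read from 4 lists. Of 16 other chemosensory receptors, 6, 7 and 9 reached 10 UMIs in hormone-dominant or other cells of the E17.5, adult and irradiated libraries. All values below set hormone-dominant against other cells in that order of libraries, and the shares and medians over all genes are those given above for this comparison. At least 2-fold higher in hormone-dominant cells were 3, 2 and 3 of them, and lower 1, 3 and 2. The orphan adhesion receptor Adgrg4 was the highest in level, at 182 CPM against 1.33, 310 against 29.0 and 334 against 87.7. Hcar1, the lactate receptor, was higher too, at 5.46 against 0.211, 7.13 against 0.693 and 9.27 against 3.73 CPM. Gpr55, a receptor for lysolipids, had 7.06 against 26.4 CPM in the adult and 9.94 against 16.1 after irradiation. Sucnr1, the succinate receptor, had 3.63 against 33.0 CPM in the adult and 6.05 against 19.7 after irradiation, the order that Ffar3 had there. The median log2 ratio of the list was 1.12, 0.21 and -0.57.

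Of 14 nutrient transporters and glucose-sensing genes, 6 of 14 were at least 2-fold higher and 3 lower at E17.5, 5 of 13 and 2 in the adult, and 7 of 13 and 2 after irradiation, with medians of -0.11, 0.84 and 1.05. Abcc8, the sulfonylurea receptor subunit of the KATP channel, was at 192 against 5.77, 156 against 4.62 and 138 against 6.98 CPM. Slc38a2, a transporter of neutral amino acids, was nearly level, at 107 against 108, 205 against 147 and 148 against 112 CPM. Slc15a1, the peptide transporter PEPT1, was at 30.7 against 4.52, 83.9 against 15 and 98.7 against 32.1 CPM. Slc5a1, the sodium-glucose transporter SGLT1, had the lower level in hormone-dominant cells at E17.5, 21.1 against 56.7 CPM, and the higher in the adult libraries, 110 against 58.6 and 64.2 against 30.6.

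Of 28 G protein and second messenger partners, 14 of 26 tested were higher and 2 lower at E17.5, 11 of 25 and 7 in the adult, and 9 of 26 and 6 after irradiation, with medians of 1.05, 0.58 and 0.50. Gnao1 and Gnai2 encode alpha subunits of the Gi/o class, to which FFAR2, FFAR3 and SSTR5 couple. Gnao1 was at 111 against 6.53, 171 against 11.4 and 124 against 31.0 CPM, and Gnai2 at 387 against 184, 272 against 282 and 340 against 264 CPM. Gnas, the Gs subunit to which GPR119 and GPBAR1 couple, was at 1973, 766 and 830 CPM against 659, 425 and 414. Gna11, of the Gq class to which FFAR1 couples, was at 193 against 431, 192 against 206 and 199 against 143 CPM.

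Of 21 receptors for hormones and transmitters, 11 of 16 were higher and 1 lower at E17.5, 10 of 16 and 1 in the adult, and 7 of 16 and 1 after irradiation, with medians of 1.84, 1.69 and 0.81. The cannabinoid receptor Cnr1 was at 32.5 against 1.10, 154 against 2.48 and 62.4 against 2.31 CPM. Sstr1 was at 27.7 against 0.551, 71.0 against 9.12 and 86.0 against 45.9 CPM, and Galr1, a galanin receptor, at 15.2 against 0.259, 49.5 against 5.31 and 56.3 against 16.9. Trpa1, a channel that opens to irritants, was at 22.8 against 2.36, 38.1 against 15 and 53.5 against 83 CPM. Of the 16 tested between the adult libraries, Cnr1 was the 1 gene at least 2-fold lower in irradiated hormone-dominant cells, where 3.25% of all genes were.

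Genes with the most similar pattern were found by Pearson correlation of log2(CPM + 1) over 22 sets of at least 50 cells among 12772 genes. The sets come from 4 libraries and share cells' depth and library, so r is a description. For Ffar1 the closest were Upp1 (0.90), Prune2 (0.90) and Cerkl (0.89), for Ffar2 Atp6ap1 (0.93), Bace2 (0.88) and Cbfa2t3 (0.87), and for Ffar3 Abhd16a (0.83), Oas2 (0.81) and Arhgap31 (0.79). For Ffar4 they were Fam216a (0.90), Wdr35 (0.87) and Mboat2 (0.86), and for Gpr119 Sphkap (0.86) and Plcl1 (0.86). For Gpbar1 they were Mark4 (0.79), Magee1 (0.72) and Mt3 (0.72), for Casr Fxyd5 (0.87), Prox1 (0.86) and Parm1 (0.86), and for Sstr5 Sis (0.94), Adgrg4 (0.94) and Tmem246 (0.92). Among the receptors themselves the closest pair was Ffar1 and Sstr5 (0.77), followed by Ffar1 and Gpr119 (0.68). Ffar1 and Ffar2 had 0.48, and Ffar3 and Ffar4 -0.36.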

How the data were processed

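RNA was counted in 4 droplet libraries of sorted Bmi1-GFP mouse intestinal epithelial cells, made with version 3 Chromium chemistry per the labels' protocols. The authors deposited raw UMI counts per gene and barcode, and per the submitters' processing notes Cell Ranger 3.1.0 and mm10 were used. How barcodes were selected before deposit is not given in the sources used here, and the lowest total was 500 UMIs. Libraries held 90674425, 77677622, 38648331 and 50761353 UMIs over 5216, 5232, 6287 and 5996 barcodes, from E12.5 to irradiated adult.

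The 8 receptors, the gene lists and the comparisons were chosen with earlier results of these data known. Barcodes under 500 genes or above 20% mitochondrial UMIs were left out, and doublets were not removed. The dominant hormone was the highest of 13 hormone genes (Ins1 and Ins2 summed) with at least 10 UMIs and 1% of the cell's UMIs. Other cells were sorted by summed markers of fixed lists, with cuts set after the data were seen: 0.5% of UMIs for tuft, endocrine and mesenchymal or muscle markers, 2% for acinar, goblet and enterocyte markers and 10% for Paneth markers. Levels in CPM carry exact Poisson 95% intervals, shares exact Clopper-Pearson ones, and ratios exact binomial ones. A gene entered a comparison with at least 10 UMIs in either set, and was called at 2-fold on log2((CPM + 1)/(CPM + 1)). Shares were taken after thinning each cell to 2000 UMIs, leaving out shallower cells: 571, 190, 686 and 505 of the kept cells of the 4 libraries. A count of 0 was limited by 3 UMIs. The ratio script was tested on simulated counts. All 8 receptors were named, with the 3 genes most alike in pattern to each and, of each list, the 4 genes highest in hormone-dominant cells by the mean of the 3 later libraries. Of these, 1 gene that the rule names is not reported here. Python 3.11.15, scipy 1.17.1 and scanpy 1.11.5 (Scrublet, as an alternative) were used, and edgeR for its TMM scaling as an alternative. Of the 8 receptors, 7 matched a RefSeq promoter entry. Alternatives were tried for the cell filter, doublets, hormone cut, thinning depth, pseudocount, count minimum, weighting and scaling.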

Additional observations from a re-analysis of the deposited data

Results flagged for a closer look

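Receptor UMIs were also present in the barcodes that the cell filter left out, which none of the reported levels include. There were 50 such UMIs for the 8 receptors together in 990 barcodes at E12.5, 34 in 630 at E17.5, 1274 in 2499 in the adult and 1897 in 2812 after irradiation. Summed over the receptors this is 31.1, 45.3, 189 and 202 CPM. Ffar3 made up the largest part in the adult libraries, with 649 and 1077 UMIs (96.3 and 115 CPM), followed by Ffar1 with 303 UMIs in the adult and Ffar2 with 372 after irradiation. In the kept cells Ffar3 was at 62.6 and 31.8 CPM.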

How the results depend on the processing

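No receptor ratio changed direction past 2-fold under any alternative run. With every deposited barcode the hormone-dominant shares of E17.5, adult and irradiated cells were 32.4%, 52.9% and 53.6%; with at least 1000 genes and at most 10% mitochondrial UMIs it was 74.5% and 73.9% in the adult and irradiated adult. With the hormone at 0.5% of UMIs the shares were 36.9%, 66.2% and 78.9%, at 2% they were 31.8%, 49.8% and 52.2%, and with the hormone at 2 times the next they were 20.8%, 48.0% and 48.6%. Over all settings, 166 counts of receptors past 2-fold were within 1.5 times the reported count and 18 moved. Beyond their counting intervals moved 186 shares of cells (78 did not), 224 log2 ratios (516 did not), 198 levels (1250 did not) and 16 hormone-dominant shares (14 did not). The share of all genes past 2-fold was taken at the reported setting only. The counts of receptors below have no such share beside them and cannot be set against all genes. For irradiated hormone-dominant over other cells, 1 receptor (Ffar3, -1.13 and -1.77) was lower with every barcode and with the mean over cells, and 2 were higher with the hormone at 2 times the next, which puts many hormone cells among the others and takes Ffar1 from 5.43 to 0.26 on the log2 scale. Ffar2 in that comparison went from 1.06 to 0.08 with the hormone at 2% of UMIs and to 0.01 with the mean over cells. For irradiated over adult in all kept cells, 1 was lower (Ffar3, -1.005) with the stricter filter, and 2 were higher at a pseudocount of 0.1 CPM. For adult over E17.5 in all kept cells, 3 were higher with the mean over cells and 1 was lower at 0.1 CPM. For adult over E17.5 in hormone-dominant cells, 1 was higher and 0 lower with the hormone at 2 times the next, and 0 were lower with a minimum of 50 UMIs. A pseudocount of 10 CPM left 2 higher at E17.5 over E12.5, 2 higher in the adult over E17.5, 0 higher in irradiated over adult in all kept and in hormone-dominant cells, 1 higher and 0 lower in adult over E17.5 hormone-dominant cells, and 5 and 4 higher in hormone-dominant over other cells of the E17.5 and irradiated libraries; it shrinks the ratios of low genes by construction. Added after seeing the data, equal weight to each hormone took Ffar3 in adult over E17.5 from 1.45 to 0.92 and Casr from 0.64 to 1.65. Doublet removal (0.8% per 1000 barcodes, since Scrublet's own threshold marked 0 to 0.174% of cells and has not worked) and TMM scaling moved no count. For the causes of the other changes, the cause was not tested. No paired analysis was possible because each group is 1 library. Depth limits Gpbar1 and Casr, whose adult counts were 3 and 62 UMIs.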

Other observations

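At E12.5, where Ffar4 was read in many cells without a dominant hormone, cells of at least 10000 UMIs were grouped by their Ffar4 UMIs, and other genes were read in the groups. The genes were chosen after their values were seen, so these are descriptions. There were 1264 cells with 0 Ffar4 UMIs, 1581 with 1 or 2 and 478 with 3 or more, with median depths of 18361.5, 23328 and 33028.5 UMIs, so depth moved with the grouping and its part was not tested. Postn, a matricellular protein gene, was at 41.8, 45.2 and 119 CPM in the 3 groups. Hoxb13, a gene of the hindgut end of the Hox series, went the other way, at 14.4, 3.70 and 2.80 CPM, as did Spp1, osteopontin, at 76.7, 20.2 and 15.2 CPM. Another Hox gene, Hoxb9, did not follow Hoxb13 and was at 6.14, 6.01 and 12.9 CPM. The gut gene Cdx2 was nearly level, at 301, 308 and 306 CPM.

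Of the list of other chemosensory receptors, Olfr78 and Olfr558 were the 2 genes at least 2-fold higher in irradiated than in adult hormone-dominant cells, out of 9 that reached 10 UMIs, beside 1.72% of all genes. Both are odorant receptors known outside the nose. Olfr558 had 0 UMIs in adult and 132 in irradiated hormone-dominant cells, and Olfr78 had 3 and 62. Over all kept cells Olfr558 had 16 UMIs at E17.5, 0 in the adult and 309 after irradiation (7.47 CPM), and Olfr78 had 5 in the adult (0.157 CPM) and 170 after irradiation (4.11 CPM).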
